A study of Mus musculus with 9 samples.

Results

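A set of 10 transcription factors of the naive pluripotent state was followed in PGC-like cells (PGCLCs) and somatic cells with and without NRF1 overexpression (OE). They are Nanog, Esrrb, Tfcp2l1, Zfp42, Klf2, Klf4, Klf5, Tbx3, Nr5a2 and Nr0b1. They were taken by gene symbol from the deposited gene tables, in which each symbol had 1 row, so that they were 10 of 56691 genes. The study sorted mouse cells from embryoid bodies (EBs) made from BVSC pluripotent stem cells (PSCs), which carry the fluorescent germ cell reporters Blimp1-mVenus (BV) and Stella-CFP. The p20 vector, which is inducible by doxycycline (DOX), held either the Nrf1 cDNA (NRF1 OE) or nothing (Ctrl), and both groups received 1.5 µg/mL DOX from day 2 to day 5 of differentiation. BV+ PGCLCs and BV- somatic cells were sorted on day 5, which gave 2 libraries of BV+ NRF1 OE, 3 of BV- NRF1 OE, 2 of BV+ Ctrl and 2 of BV- Ctrl. The PSCs had been kept with LIF, the MEK inhibitor PD0325901 and the GSK3 inhibitor CHIR99021, and the EBs were made in medium with serum. The labels give neither animal ages nor whether the replicates were separate cultures, so the p-values measure the spread between these libraries, which may be technical. All groups share the reporter line and the DOX treatment, so cells without DOX were not part of any comparison.

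Naive pluripotency is the state of the preimplantation epiblast, which mouse PSCs hold in culture. NANOG, ESRRB, TFCP2L1, TBX3 and the KLF factors keep each other and the core factors OCT4 and SOX2 active, and they receive the signals of LIF through STAT3 and of GSK3 inhibition through TCF7L1. These factors are switched off as cells leave the naive state for the formative epiblast, from which primordial germ cells (PGCs) are made, and several of them, Nanog among them, are expressed again in early PGCs. Differentiated somatic lineages do not express them as a group.

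Total counts ranged from 13702162 to 19625460 per library, and 16903 genes were tested. Levels are given as CPM, the counts scaled to library size with TMM factors. Nrf1 was at 95.7 and 99.4 CPM in BV+ NRF1 OE against 91.1 and 90.4 in BV+ Ctrl, and at 119, 122 and 126 in BV- NRF1 OE against 99.1 and 105 in BV- Ctrl. Neither difference passed the test (edgeR adjusted p = 0.489 and 0.0718). Every NRF1 OE library lay above the Ctrl libraries of its own population, and the libraries of BV+ NRF1 OE and BV- Ctrl overlapped. Prdm1, the Blimp1 gene that the sorting reporter reads, was at 57.5 and 62.8 CPM in BV+ Ctrl and at 58.6 and 57.3 CPM in BV- Ctrl, so the BV+ libraries did not stand above the BV- libraries (log2 fold change 0.05, SE 0.166, adjusted p = 1.00). With NRF1 OE, Nrf1 therefore showed only a small rise that was not called, and Prdm1 did not separate BV+ from BV- at Ctrl. Whether the populations and labels were as intended was not tested. The names BV+, BV-, NRF1 OE and Ctrl below are those of the libraries as labelled. The libraries labelled NRF1 OE and Ctrl also differed in how counts followed the GC content of transcripts. The rank correlation over 14253 genes between GC content and a gene's deviation from its mean lay between -0.561 and -0.467 in the 4 Ctrl libraries and between 0.00674 and 0.666 in the 5 NRF1 OE libraries. In this design the GC trend and NRF1 OE cannot be told apart, so the NRF1 OE comparisons are also given with offsets for GC content and length. Reads from Zfp42 and its pseudogene Zfp42-ps1, which was at 18.2 to 38.1 CPM over the 9 libraries, may be split between the copies, and Zfp42 values are uncertain to that extent. Without a stated strand setting, Tbx3 cannot be told apart from Tbx3os1 on the opposite strand, although the latter had 2 to 13 counts per library.

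RefSeq promoter sequences (GRCm38.p6) were at hand for 8 of the 10 genes, with 11 start sites, and Klf5 and Tbx3 had no entry. Those of Nanog, Zfp42, Klf4 and Klf2 are shown because Nanog had a high and steady level, Zfp42 and Klf4 were lower with NRF1 OE in both populations, and Klf2 was higher with NRF1 OE in BV- cells. Each is the 250 bases before the start site, 5′ to 3′ on the gene's own strand. The windows are chr6:122707239-122707488 on the plus strand, chr8:43307010-43307259 on the minus strand, chr4:55532476-55532725 on the minus strand and chr8:72318812-72319061 on the plus strand. Capitals mark a composite SOX-OCT element in Nanog and the GC boxes, which SP and KLF proteins can bind, in the other sequences.
Nanog: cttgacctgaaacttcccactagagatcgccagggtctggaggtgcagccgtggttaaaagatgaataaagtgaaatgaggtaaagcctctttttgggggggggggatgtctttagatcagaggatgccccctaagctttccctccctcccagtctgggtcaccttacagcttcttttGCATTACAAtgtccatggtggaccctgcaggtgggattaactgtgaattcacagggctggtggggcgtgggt
Zfp42: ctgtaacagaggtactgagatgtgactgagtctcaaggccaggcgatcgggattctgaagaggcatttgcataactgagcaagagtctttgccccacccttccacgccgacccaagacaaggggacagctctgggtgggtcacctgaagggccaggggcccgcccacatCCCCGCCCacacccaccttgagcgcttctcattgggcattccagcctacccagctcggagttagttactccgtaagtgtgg
Klf4: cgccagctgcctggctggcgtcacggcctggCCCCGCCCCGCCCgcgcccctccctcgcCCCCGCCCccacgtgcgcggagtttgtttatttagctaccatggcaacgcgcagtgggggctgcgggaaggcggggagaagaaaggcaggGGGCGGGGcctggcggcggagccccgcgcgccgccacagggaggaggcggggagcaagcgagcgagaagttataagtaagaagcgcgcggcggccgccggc
Klf2: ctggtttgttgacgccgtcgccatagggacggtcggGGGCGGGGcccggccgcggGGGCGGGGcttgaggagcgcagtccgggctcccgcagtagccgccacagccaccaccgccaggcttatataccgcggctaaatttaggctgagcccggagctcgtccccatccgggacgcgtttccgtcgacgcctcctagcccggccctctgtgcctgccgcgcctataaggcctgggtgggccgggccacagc

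Both strands were searched. The SOX-OCT element, searched as TTGTNATGC, was at 1 place in Nanog, which both of its overlapping windows hold. This place is 72 bases before the start in the window shown. The element was in 0.648% of all 32851 windows. The GC box GGGCGGGG was in the windows of Zfp42, Klf4 and Klf2, against 16.1% of all windows. It began 81 bases before the start in Zfp42, at 214 and 195 bases in Klf2 and at 4 places in Klf4, 2 of which overlap. The GC content of the windows shown was 74.0% in Klf4, 71.2% in Klf2, 58.4% in Zfp42 and 52.0% in Nanog, against a median of 52.4% over all windows. The NRF1 motif, searched as GCGCANGCG, was in 0 of the 11 windows and in 5.16% of all windows. The STAT3 motif TTCCNGGAA (0.913% of all windows) and the ESRRB motif TCAAGGTCA (0.387%) were also in 0 of the 11. These are matches of letters in a short window and not sites of binding.

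On the FPKM scale, which corrects for length and so allows genes to be compared, the 10 factors spanned about the same range in every group. Nanog and Zfp42 were the most abundant. In BV- Ctrl they were at 207 ± 0.870 and 204 ± 12.4 FPKM (SD, n = 2), and in BV+ Ctrl at 198 ± 4.86 and 202 ± 2.56 FPKM (SD, n = 2), and the libraries of both genes overlapped within each of these groups. Klf2 and Esrrb followed at 61.6 ± 1.17 and 61.4 ± 1.55 FPKM in BV+ Ctrl (SD, n = 2), again with overlap, and Nr0b1, an orphan nuclear receptor that binds to OCT4, was at 41.6 ± 2.93 FPKM. Nr5a2, the nuclear receptor LRH-1, and Klf5 were at 14.3 ± 0.0212 and 13.6 ± 1.53 FPKM and overlapped, and Tfcp2l1 was at 10.3 ± 0.00707 FPKM. Klf4 at 4.20 ± 0.339 FPKM and Tbx3 at 3.73 ± 0.134 FPKM were last. In BV+ Ctrl 99.0% of the genes tested were below Nanog by FPKM and 48.8% below Tbx3.

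The order changed little with NRF1 OE. Nanog was first at 175 ± 22.9 FPKM in BV+ NRF1 OE (SD, n = 2) and 205 ± 9.81 FPKM in BV- NRF1 OE (SD, n = 3), now with every library above those of Zfp42 at 123 ± 27.9 and 138 ± 23.5 FPKM. Klf2 and Esrrb again overlapped in both NRF1 OE groups. Tbx3 lay above Klf4 in BV+ NRF1 OE (3.03 ± 0.212 and 2.57 ± 0.297 FPKM) and below it in the other groups, with 1.34 ± 0.163 FPKM for Tbx3 and 2.01 ± 0.288 FPKM for Klf4 in BV- NRF1 OE. The summed level of the 10 genes was 1607 to 1666 CPM in BV+ Ctrl, 1675 to 1684 CPM in BV- Ctrl, 1610 to 1702 CPM in BV- NRF1 OE and 1279 to 1506 CPM in BV+ NRF1 OE. At Ctrl and at NRF1 OE, this sum was higher in each library labelled somatic than in each library labelled PGCLC. Nanog, Zfp42 and Esrrb gave most of the sum. At Ctrl 0 members were called between BV+ and BV-. There 3 members were higher and 3 lower in BV+ without overlap, against 22.6% and 25.4% of all genes.

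**Figure D1:**
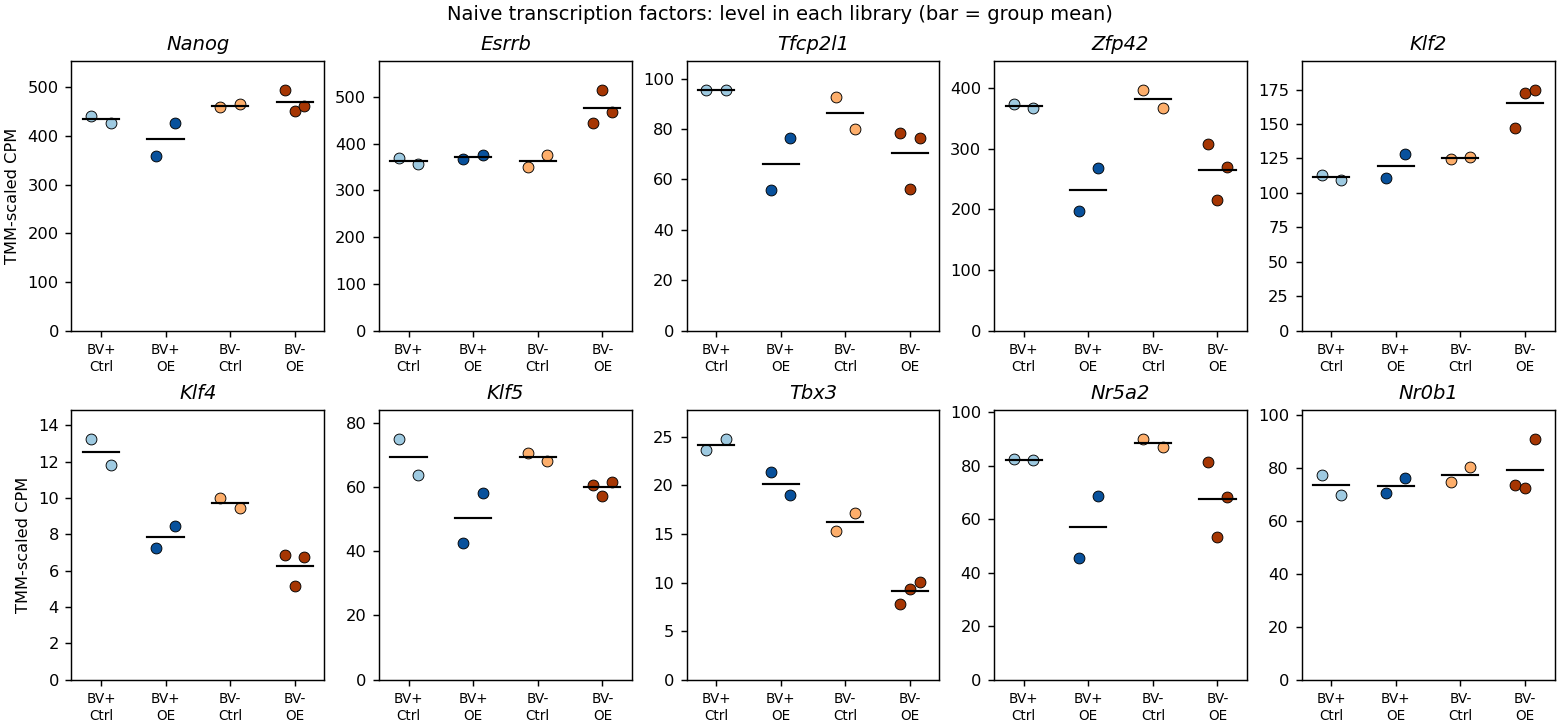
TMM-scaled CPM (linear axis from 0) of each of the 10 factors in each of the 9 libraries, by group, with a bar at the group mean. Tbx3 is highest in BV+ Ctrl (23.6 and 24.8 CPM) and lowest in BV- NRF1 OE (7.83 to 10.1 CPM), Zfp42 and Klf4 lie lower in both NRF1 OE groups, and Nanog and Nr0b1 keep a similar level throughout.

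The first comparison was of the libraries labelled BV+ NRF1 OE with those labelled BV+ Ctrl. Zfp42 and Klf4 were lower in BV+ NRF1 OE, and no member was called higher. Zfp42, the zinc finger protein REX1 and a classical marker of the naive state, was at 197 and 268 CPM in BV+ NRF1 OE and at 374 and 367 CPM in BV+ Ctrl. The groups did not overlap, and the first NRF1 OE library was the lowest. The log2 fold change was -0.67 (SE 0.172), 1.59-fold lower, with an edgeR adjusted p of 0.0404. Klf4, a reprogramming factor downstream of STAT3, was at 7.26 and 8.43 CPM against 13.2 and 11.8 CPM, without overlap. Its log2 fold change was -0.67 (SE 0.183) with an adjusted p of 0.0472. As these are bulk libraries, fewer cells that express a gene and less RNA per cell cannot be told apart.

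The 2 members called lower compare with 1.78% of all genes tested that were lower and the 0 called higher with 6.24% that were higher. By the study's rule, an unadjusted p under 0.05 with a log2 fold change beyond 0.58, 2 members were lower, against 7.2% of all genes. The shares of 1.78% and 6.24% rest on 1355 genes called in all, a count that was 0 without BV+ NRF1 OE 1, BV+ Ctrl 1 or BV+ Ctrl 2 and reached 4957 without BV- NRF1 OE 2. Both calls were close to the threshold. Zfp42 lost its call when any of BV+ NRF1 OE 1, BV+ Ctrl 1, BV+ Ctrl 2, BV- NRF1 OE 3, BV- Ctrl 1 or BV- Ctrl 2 was left out (adjusted p 0.0536 to 0.351), and its log2 fold change ranged from -0.91 to -0.46 over the 9 omissions. Klf4 lost its call without any of those libraries or without BV+ NRF1 OE 2 (adjusted p 0.0511 to 0.340), with log2 fold changes of -0.78 to -0.56.

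A further 4 members had every BV+ NRF1 OE library below every BV+ Ctrl library but did not pass the test. That made 6 members lower without overlap, against 32% of all genes, which were lower without overlap in this comparison of 2 with 2 libraries. Tfcp2l1, a target of STAT3, was at 55.7 and 76.6 CPM in BV+ NRF1 OE and 95.5 and 95.3 CPM in BV+ Ctrl (log2 fold change -0.53, SE 0.184, adjusted p = 0.0849). Nr5a2 was at 45.6 and 68.7 CPM against 82.4 and 82.1 CPM (-0.52, SE 0.205, adjusted p = 0.110). For both genes the Ctrl libraries nearly coincided while the NRF1 OE libraries were apart. Klf5, which is needed for self-renewal of PSCs, was at 42.4 and 58.0 CPM against 74.9 and 63.8 CPM (-0.47, SE 0.152, adjusted p = 0.0745). Tbx3, a T-box factor, was at 21.3 and 19.0 CPM against 23.6 and 24.8 CPM (-0.26, SE 0.153, adjusted p = 0.245).

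The remaining 4 members overlapped between the groups. Nanog was at 359.8 and 427 CPM in BV+ NRF1 OE and at 442 and 427 CPM in BV+ Ctrl (log2 fold change -0.14, 95% interval -0.38 to 0.09, adjusted p = 0.363). Esrrb, an orphan nuclear receptor and a target of the GSK3 and TCF7L1 axis, was at 368 and 376 CPM against 369 and 356 CPM (0.04, -0.19 to 0.27). Klf2 was at 111 and 128 CPM against 113 and 109.7 CPM (0.10, -0.16 to 0.37). Nr0b1 was at 70.3 and 76.1 CPM against 77.1 and 69.7 CPM (-0.00, -0.30 to 0.29). The intervals of Esrrb, Klf2 and Nr0b1 lie on both sides of 0. Over the 10 members the median log2 fold change was -0.36, against 0.04 over all genes tested.

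Among the BV- libraries, which the labels call somatic, those labelled NRF1 OE had lower Tbx3, Klf4 and Zfp42 and higher Esrrb and Klf2 than Ctrl. Tbx3 was at 7.83, 9.36 and 10.1 CPM in BV- NRF1 OE and at 15.3 and 17.2 CPM in BV- Ctrl. This was the largest difference among the members in this comparison, 1.79-fold (log2 fold change -0.84, SE 0.147, adjusted p = 0.0317). Klf4 was at 6.86, 5.16 and 6.75 CPM against 10.0 and 9.45 CPM (-0.63, SE 0.172, adjusted p = 0.0377). Zfp42 was at 308, 216 and 270.0 CPM against 397 and 367 CPM (-0.53, SE 0.155, adjusted p = 0.0428). None of these 3 genes overlapped between NRF1 OE and Ctrl. The pseudogene Zfp42-ps1 was also lower (-0.63, SE 0.183, adjusted p = 0.0415).

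Esrrb was at 443, 515 and 468 CPM in BV- NRF1 OE and at 351 and 375 CPM in BV- Ctrl, 1.31-fold higher (log2 fold change 0.39, SE 0.0967, adjusted p = 0.0338). Klf2, a relative of KLF4 whose protein is a target of the ERK kinases, was at 147, 173 and 175 CPM against 125 and 126 CPM (0.39, SE 0.112, adjusted p = 0.0409). All 3 NRF1 OE libraries were above both Ctrl libraries for both genes, as they were for 29.4% of all genes. The counts of 3 members lower and 2 higher compare with 6.98% and 10.2% of all genes tested. Over all genes 2910 were called, a count that was 0 without BV+ Ctrl 1, BV+ Ctrl 2 or BV- Ctrl 1, 1 without BV- Ctrl 2, 35 without BV- NRF1 OE 3 and 5847 without BV- NRF1 OE 1. By the study's rule 2 members, Tbx3 and Klf4, were lower, against 10.3% of all genes.

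The other members did not pass the test in BV- cells. Nr5a2 was at 81.4, 53.4 and 68.4 CPM against 90.0 and 87.1 CPM (log2 fold change -0.39, SE 0.185, adjusted p = 0.145) and Tfcp2l1 at 78.4, 56.1 and 76.3 CPM against 92.8 and 79.9 CPM (-0.29, SE 0.167, adjusted p = 0.208). In both genes the second NRF1 OE library was the lowest, as it was for Zfp42 and Klf4. Klf5 was at 60.7, 57.2 and 61.7 CPM against 70.6 and 68.1 CPM (-0.21, SE 0.138, adjusted p = 0.275). With these, 6 members were lower without overlap, against 27.6% of all genes. Nanog (495, 453 and 461 CPM against 459 and 465 CPM) and Nr0b1 (73.6, 72.6 and 90.9 CPM against 74.6 and 80.3 CPM) overlapped, with log2 fold changes of 0.02 (95% interval -0.19 to 0.24) and 0.03 (-0.24 to 0.30). All 5 calls in BV- cells were lost without BV- NRF1 OE 3 or any one of the 4 Ctrl libraries (adjusted p 0.0595 to 0.313), and that of Klf2 also without BV- NRF1 OE 2 (adjusted p = 0.0562). Over those omissions the 5 log2 fold changes kept their sign. The count of 5 fell to 0 in a fit of the 5 BV- libraries alone, in which 0 of 15840 genes were called and the adjusted p of the 5 members was 0.0806 to 0.0847.

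**Figure D2:**
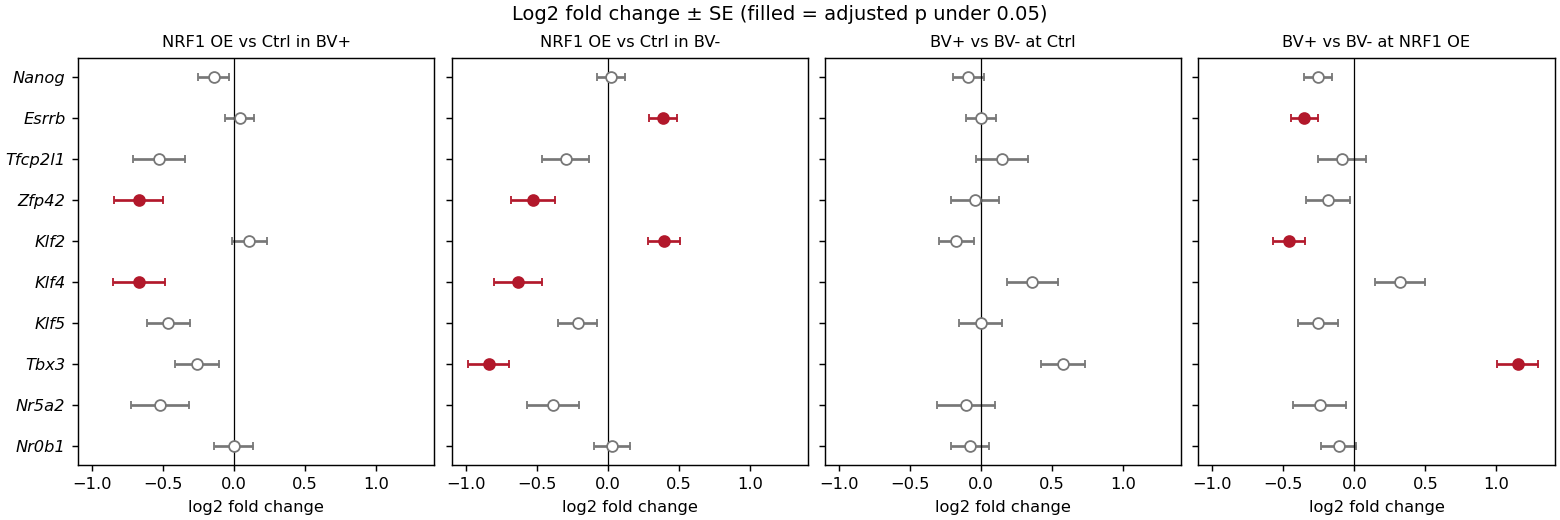
Log2 fold change of each factor with its standard error in the 4 comparisons, from edgeR on all 9 libraries. Filled points passed an adjusted p of 0.05: Zfp42 and Klf4 with NRF1 OE in BV+ cells, 5 factors in BV- cells, none between BV+ and BV- at Ctrl, and Tbx3 (1.15), Esrrb and Klf2 between BV+ and BV- at NRF1 OE.

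Offsets for GC content and length kept some of the differences with NRF1 OE and ended others. The transcripts ranged from 43.2% GC for Nr5a2 to 61.6% for Klf2. With the offsets Klf4 remained lower in both populations (log2 fold change -0.93, adjusted p = 0.0157, in BV+ and -0.90, adjusted p = 0.0284, in BV-), as did Zfp42 (-0.59, adjusted p = 0.0128, and -0.42, adjusted p = 0.0435). Tbx3 was lower in both as well (-0.47, adjusted p = 0.0255, and -1.01, adjusted p = 0.00951). The higher level of Klf2 in BV- NRF1 OE was not seen with the offsets (-0.05, adjusted p = 0.815), and that of Esrrb was 0.16 (adjusted p = 0.170). Klf2 and Esrrb had 61.6% and 54.9% GC, and Nr0b1 (55.2%), Klf4 (54.6%) and Tbx3 (54.2%) were close to Esrrb. Whether GC content lay behind the 2 changes was not tested. In BV+ cells Klf5 (-0.40, adjusted p = 0.0405) and Tfcp2l1 (-0.34, adjusted p = 0.0431) were also called. Klf2 and Esrrb, not called there, moved from 0.10 to -0.34 (adjusted p = 0.0958) and from 0.04 to -0.21 (adjusted p = 0.0854). With offsets 5 members were lower in BV+ cells and 3 in BV- cells, against 5.58% and 1.81% of all genes that were lower.

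**Figure D3:**
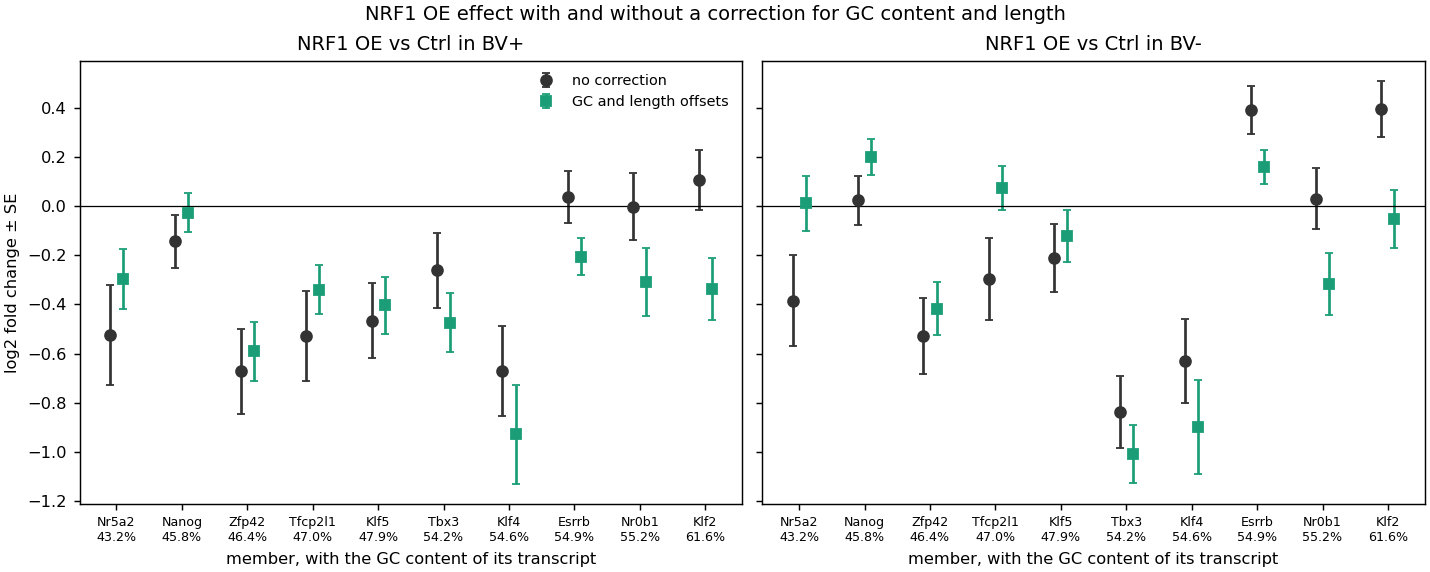
Log2 fold change with NRF1 OE (± SE) without correction (circles) and with GC and length offsets (squares), members ordered by the GC content of their transcripts. In BV- cells the points of Klf2 (61.6% GC) and Esrrb (54.9% GC) move toward 0 with the offsets. In BV+ cells they move from 0.10 to -0.34 and from 0.04 to -0.21. Klf4, Zfp42 and Tbx3 stay below 0 in both panels.

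The comparison of the libraries labelled BV+ with those labelled BV- asked whether the sorted populations differed. At Ctrl, 0 of the 10 members passed the test, where 1.1% of all genes were higher in BV+ and 0.0237% lower. Tbx3 had the largest difference, with 23.6 and 24.8 CPM in BV+ Ctrl and 15.3 and 17.2 CPM in BV- Ctrl (log2 fold change 0.57, SE 0.155, unadjusted p = 0.00326, adjusted p = 0.148). It was called in a fit of these 4 libraries alone (adjusted p = 0.00314) and without BV- NRF1 OE 2 (adjusted p = 0.0318), and over all alternatives its adjusted p ranged from 0.00314 to 0.932. Klf4 was at 13.2 and 11.8 CPM in BV+ Ctrl against 10.0 and 9.45 CPM in BV- Ctrl (0.36, 95% interval -0.04 to 0.76). For the other 8 members the log2 fold change lay between -0.17 (Klf2) and 0.14 (Tfcp2l1). The 95% intervals were -0.33 to 0.15 for Nanog, -0.23 to 0.23 for Esrrb and -0.42 to 0.33 for Zfp42. DESeq2 also called 0 members, and 1 member, Tbx3, had an unadjusted p under 0.05, against 7.77% of all genes.

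At NRF1 OE, Tbx3 was higher and Esrrb and Klf2 were lower in BV+ than in BV- cells. Tbx3 was at 21.3 and 19.0 CPM in BV+ NRF1 OE and at 7.83, 9.36 and 10.1 CPM in BV- NRF1 OE, 2.22-fold higher (log2 fold change 1.15, SE 0.145, adjusted p = 0.000294). The groups lay far apart, and the call was kept under each of the 8 alternatives of processing (adjusted p 7.85e-09 to 0.00397) and without each library in turn (adjusted p 1.55e-05 to 0.00654). Klf2 was at 111 and 128 CPM against 147, 173 and 175 CPM (-0.46, SE 0.113, adjusted p = 0.0189). Esrrb was at 368 and 376 CPM against 443, 515 and 468 CPM (-0.35, SE 0.0965, adjusted p = 0.0327). The call of Klf2 was lost without BV+ NRF1 OE 1, BV- NRF1 OE 3 or BV- Ctrl 2 (adjusted p 0.0519 to 0.180), and that of Esrrb without any one library except BV- NRF1 OE 1 (adjusted p 0.0597 to 0.169). The 1 member higher and 2 lower compare with 9.9% and 3.85% of all genes. By the study's rule only Tbx3 passed, against 11.4% of all genes called higher. Tbx3 and Klf4 were the 2 members higher in BV+ without overlap, against 20.3% of all genes, and Nanog, Esrrb and Klf2 the 3 lower without overlap, against 19.5%.

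Nanog was at 359.8 and 427 CPM in BV+ NRF1 OE against 453 to 495 CPM in BV- NRF1 OE (log2 fold change -0.26, SE 0.100, adjusted p = 0.118). With GC and length offsets, Tfcp2l1 (-0.45), Nr5a2 (-0.53), Klf5 (-0.34) and Nanog (-0.33) were called lower besides Esrrb (-0.45) and Klf2 (-0.46). The offsets moved the median of all genes from -0.00492 to -0.11 in this comparison, and with them 1 member was higher and 6 were lower, against 10.6% and 16.8% of all genes. The libraries with the most similar GC trend were BV+ NRF1 OE 2 (0.00674) and BV- NRF1 OE 1 (0.0445). Between these libraries, with BV+ first, Tbx3 was at 19.0 against 7.83 CPM and Klf4 at 8.43 against 6.86 CPM. Klf2 was at 128 against 147 CPM, Esrrb at 376 against 443 CPM, Nanog at 427 against 495 CPM, Nr5a2 at 68.7 against 81.4 CPM and Zfp42 at 268 against 308 CPM. Tfcp2l1 (76.6 against 78.4 CPM), Klf5 (58.0 against 60.7 CPM) and Nr0b1 (76.1 against 73.6 CPM) were close to equal in this pair, although Tfcp2l1 and Klf5 were called lower in BV+ with the offsets. A pair of single libraries gives no test.

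The difference in the effect of NRF1 OE between BV+ and BV- cells was tested directly, and 0 of the 10 members and 0 of all genes passed with edgeR. An unadjusted p under 0.05 was found in 5.51% of all genes, and DESeq2 called 23 genes, none of them a member. Leaving out each library gave 0 to 33 genes and 0 members with edgeR. Among the members, Tbx3 (log2 difference 0.58, SE 0.213, unadjusted p = 0.0196, adjusted p = 0.741) and Esrrb (-0.35, SE 0.142, unadjusted p = 0.0296, adjusted p = 0.815) were nearest to the threshold. The other 8 lay between -0.29 (Klf2) and -0.03 (Nr0b1). The effects on Tbx3, Esrrb and Klf2 in BV- cells are therefore not shown to differ from those in BV+ cells.

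The members did not share 1 profile over the 9 libraries. Likeness was measured as the root mean square difference between log2 CPM profiles, each centred on its own mean, over 9 libraries and 14374 genes. Zfp42 and Nr5a2 were the closest pair of members, with a difference of 0.0891, and Zfp42 was at rank 31 among all genes by likeness to Nr5a2 and Nr5a2 at rank 49 by likeness to Zfp42. Nanog and Nr0b1 had the flattest profiles, with an SD over libraries of 0.129 and 0.116, and Tbx3 the most varied, with 0.610. Klf4 was nearest to Tfcp2l1 among the members (0.228), and Tbx3 to Klf4 (0.365). The genes most like each member were P4ha1 and Xrcc6 for Nanog, Slc3a2 and Tomm20 for Esrrb, Fastkd1 and Ralgps1 for Tfcp2l1, Bag4 for Zfp42, and Anxa11 and Tango6 for Klf2. They were Magi2 and Dixdc1 for Klf4, Epb41l4a and Dock3 for Klf5, Vldlr and Flrt3 for Tbx3, Hhip and Tex14 for Nr5a2, and Dnmt1 and Incenp for Nr0b1. The differences to these genes ranged from 0.0321 to 0.182.

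Other genes of the naive network were read from lists. Of 16 companions of the naive state, which include Pou5f1 (OCT4) and Sox2, 0 were higher and 7 lower in BV+ than in BV- cells at NRF1 OE, where 3.85% of all genes were lower. With GC and length offsets 12 were lower, against 16.8% of all genes. The lowest were Utf1 (log2 fold change -0.70, adjusted p = 0.00262) and Gdf3 (-0.55, adjusted p = 0.00765), and the median of the list was -0.42 against -0.00492 for all genes. With NRF1 OE in BV+ cells 1 companion was lower, Zfp57, a zinc finger protein that protects imprints (-0.73, adjusted p = 0.0296), against 1.78% of all genes. With the offsets 7 were lower, against 5.58% of all genes, with Tet2 (-0.80), Zfp57 (-0.61) and Fgf4 (-0.59) the lowest. In BV- cells Tet2, which oxidises 5-methylcytosine, and Zfp57 were lower (-1.28 and -0.59) and Utf1 was higher (0.46), the last only without GC offsets (-0.02 with them). Without offsets 6.98% of all genes were lower and 10.2% higher there. With the offsets 0 companions were higher and 3 lower in BV- cells, against 1.81% of all genes that were lower. At Ctrl 0 of the 16 were called between BV+ and BV- cells, where 1.1% of all genes were called higher and 0.0237% lower. Without overlap, 0 were higher and 13 lower in BV+, against 22.6% and 25.4% of all genes. The 16 summed to 3872 to 4054 CPM in BV+ Ctrl and 4460 to 4628 CPM in BV- Ctrl. Pou5f1 was at 869.9 and 798 CPM in BV+ Ctrl and at 962 and 1034 CPM in BV- Ctrl.

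Of 10 genes of the LIF and STAT3 pathway, which acts upstream of Klf4 and Tfcp2l1, 2 were higher with NRF1 OE in BV+ cells, where 6.24% of all genes were higher. Socs3, the feedback inhibitor of STAT3, was at 43.5 and 24.7 CPM in BV+ NRF1 OE and 9.63 and 12.3 CPM in BV+ Ctrl (log2 fold change 1.63, SE 0.338, adjusted p = 0.0235), and Pim3 was higher by 0.56. In BV- cells Pim3 (0.61) and Tyk2 (0.50) were higher and Lifr, the LIF receptor, was lower (-0.75, adjusted p = 0.0493). Of all genes 10.2% were higher and 6.98% lower there. Of these 5 calls only that of Socs3 was kept with GC and length offsets (1.22, adjusted p = 0.0161), and Lifr was then called lower in BV+ cells (-0.42, adjusted p = 0.0492). At NRF1 OE, Socs3 (1.95), Jak1 (0.44) and Stat3 (0.39) were higher in BV+ than in BV- cells, against 9.9% of all genes. Of these, Jak1 (adjusted p = 0.0516) and Stat3 (adjusted p = 0.124) were not called with the offsets. With the offsets 4 of the list were called lower there, Tyk2 (-0.50), Pim3 (-0.34), Il6st (-0.42) and Lifr (-0.42), against 16.8% of all genes. Of 10 genes of the WNT, GSK3 and TCF axis, 0 passed with NRF1 OE in BV+ cells, and 1, Lef1, with the offsets (0.49, adjusted p = 0.0345). The shares of all genes that passed were 8.02% and 12.4%. In BV- cells 1 was higher, Gsk3a (0.49), and 1 lower, Apc (-0.83), against 10.2% and 6.98% of all genes. Neither was called with GC offsets (0.07 and -0.30). Between BV+ and BV- cells at NRF1 OE 1 was higher, Gsk3b (0.57), against 9.9% of all genes. With the offsets Gsk3b (0.20) was higher and Tcf7 (-0.27) and Gsk3a (-0.22) lower there, against 10.6% and 16.8% of all genes. Tcf7l1, a repressor of Esrrb, passed in none of the 4 comparisons.

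Of 14 other genes of the KLF family, 13 could be tested. Klf9 was lower with NRF1 OE in both BV+ (log2 fold change -0.94, adjusted p = 0.0295) and BV- cells (-0.85, adjusted p = 0.0317). It was at 57.0 and 91.6 CPM in BV+ NRF1 OE against 143 and 142 CPM in BV+ Ctrl. Klf6 was lower in BV- NRF1 OE (-0.39, and 0.03 with GC offsets), and between BV+ and BV- cells at NRF1 OE Klf6 was higher (0.41, and 0.15 with GC offsets, adjusted p = 0.245) and Klf16 lower (-0.44). Of the 13, 1 was lower with NRF1 OE in BV+ cells and 2 in BV- cells, against 1.78% and 6.98% of all genes. Between populations at NRF1 OE 1 was higher and 1 lower, against 9.9% and 3.85%. With the offsets 2 were lower in BV+ NRF1 OE, 1 in BV- NRF1 OE and 4 in BV+ against BV- at NRF1 OE, and 0 were higher. The shares of all genes that were lower were then 5.58%, 1.81% and 16.8%. Of 9 markers of the formative and primed epiblast, 0 passed with NRF1 OE in BV- cells, and 1, Zic2, with the offsets (-0.52, adjusted p = 0.0318). The shares of all genes that passed were 17.2% and 6.05%. At NRF1 OE Sall2 was higher (0.80) and Otx2, which drives the exit from the naive state, lower (-0.43) in BV+ than in BV- cells. Of all genes 9.9% were higher and 3.85% lower there.

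Some markers of other cells moved with BV+ and with NRF1 OE in BV+. The 6 mesenchyme markers summed to 446 to 698 CPM in BV+ NRF1 OE, 128 to 135 CPM in BV+ Ctrl, 18.6 to 25.8 CPM in BV- NRF1 OE and 20.2 to 24.7 CPM in BV- Ctrl. Of the 5 that could be tested, 3 were higher and 1 lower with NRF1 OE in BV+ cells, against 6.24% and 1.78% of all genes. The higher ones were the collagens Col1a1 (log2 fold change 1.96), Col1a2 (2.26) and Col3a1 (1.94), Pdgfra was lower (-1.17), and Prrx1 was at 0 to 0.927 CPM. Twist1 was not called (-0.07 with GC and length offsets). Col1a2 alone was at 602 and 368 CPM in BV+ NRF1 OE. The 4 neuroectoderm markers summed to 112 to 165 CPM in BV+ NRF1 OE, 65.5 to 72.4 CPM in BV+ Ctrl and 29.8 to 49.4 CPM in the BV- libraries. With NRF1 OE in BV+ cells only 1 of the 4 was called higher, against 6.24% of all genes. The log2 fold change was positive in 3 of them, and the lowest was -0.20. Among 7 endothelium markers 2, Kdr (1.49) and Cdh5 (1.59), were higher with NRF1 OE in BV+ cells, against 6.24% of all genes. The list summed to 158 to 193 CPM in all libraries, of which Pecam1, which PSCs also express, gave 100.4 to 171 CPM.

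The first BV+ NRF1 OE library had the highest sum of the mesenchyme markers, mainly from Col1a2. It also had the lower level of Nanog, Zfp42, Tfcp2l1, Klf4, Klf5, Nr5a2, Klf2, Esrrb and Nr0b1 of the BV+ NRF1 OE pair, and the higher level of Tbx3. In BV- cells, where the mesenchyme markers summed to no more than 25.8 CPM in any library, Klf4, Zfp42 and Tbx3 were lower with NRF1 OE. The part of other cells in the BV+ values was not tested. Of 10 PGC markers, 0 were called between BV+ and BV- cells at Ctrl. Without overlap, 1 was higher and 6 lower in BV+ there, against 22.6% and 25.4% of all genes. The 10 summed to 455 to 464 CPM in BV+ Ctrl and 482 to 505 CPM in BV- Ctrl. With NRF1 OE in BV+ cells 1 of the 10 was higher, Dppa3 (Stella, log2 fold change 0.64), against 6.24% of all genes. In BV- cells 4 were higher, against 10.2% of all genes, namely Nanos3 (1.02), Dppa3 (0.84), Dnd1 (0.82) and Tfap2c (0.43). With GC and length offsets Dppa3 (0.96) and Dnd1 (0.55) were called and Nanos3 (0.58, adjusted p = 0.0896) and Tfap2c (0.22, adjusted p = 0.221) were not. In BV+ against BV- cells at NRF1 OE 3 were lower, against 3.85% of all genes, Nanos3 (-1.04), Dppa3 (-0.65) and Tfap2c (-0.43), and 6 with the offsets, against 16.8%. The endoderm, mesoderm and trophoblast markers summed to no more than 24.4, 11.7 and 9.27 CPM in any library. All 6 endoderm markers could be tested, but only 4 of 6 mesoderm and 2 of 4 trophoblast markers. With NRF1 OE 0 of those tested were called in BV+ cells, where 6.24% of all genes were higher and 1.78% lower. In BV- cells 1 endoderm marker was lower (Gata6) and 1 trophoblast marker higher (Krt7), against 6.98% and 10.2% of all genes. With the offsets Gata6 was also lower in BV+ cells (-1.10) and Gata4 in BV- cells (-0.65). Of all genes 5.58% and 1.81% were then lower in BV+ and in BV- cells.

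**Figure D4:**
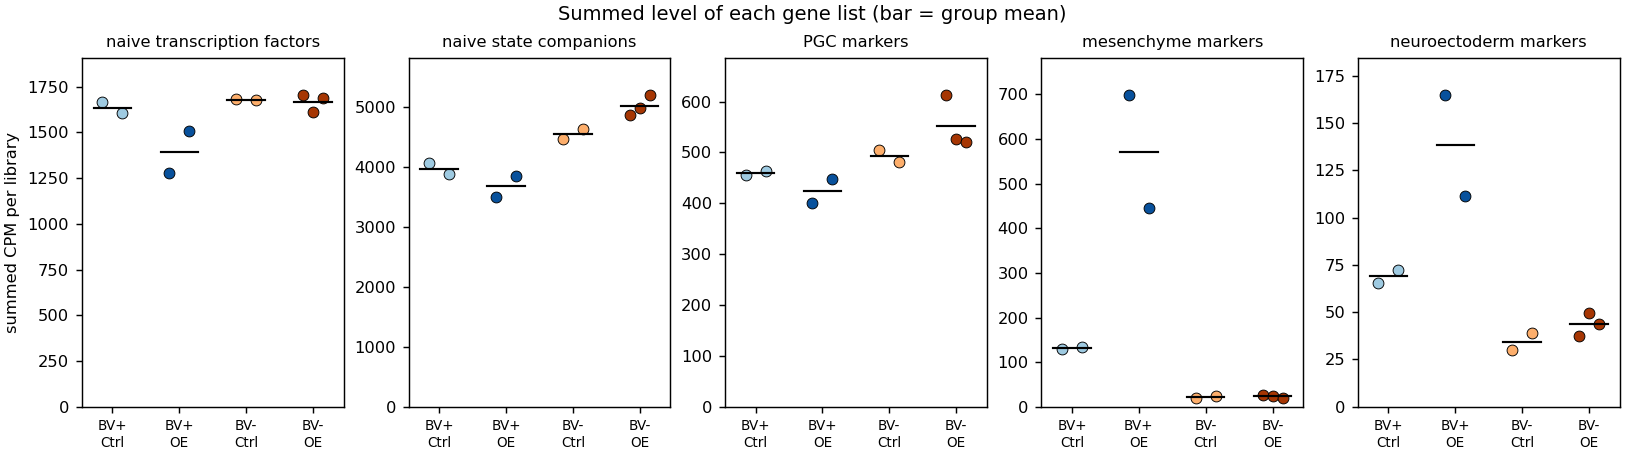
Summed CPM (linear axes from 0) of the 10 naive transcription factors, the naive state companions and the PGC, mesenchyme and neuroectoderm markers in each library, with a bar at the group mean. The naive factors lie between 1279 and 1702 CPM in all libraries, while the mesenchyme markers reach 446 to 698 CPM in BV+ NRF1 OE and stay at or under 25.8 CPM in BV- cells.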

How the data were processed

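RNA-seq libraries of sorted BV+ and BV- cells were analysed from deposited per-sample tables, with groups taken from the sample titles. Reads were mapped to GRCm39 with HISAT2 2.0.1 and counted per gene with HTSeq 0.6.1, per the labels. The strand setting of the counting was not given in the sources used here. The deposited raw counts were used for all tests. The deposited FPKM values, which the authors calculated from the same counts, served to compare levels between genes. Tests used the quasi-likelihood test of edgeR 4.0.16 in R 4.3.3 with TMM factors, filterByExpr, 1 term for each of the 4 groups over 9 libraries, and Benjamini-Hochberg adjustment over all 16903 genes tested, of 33142 with a count. A gene was called at an adjusted p under 0.05. The biological coefficient of variation was 0.129. Levels are CPM with TMM factors, and intervals are 95% intervals of the fit. Log2 CPM used a prior count of 2.

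Alternatives were DESeq2 1.42.0, its size factors and upper-quartile factors in edgeR, no filter, a fit of only the libraries compared, a replicate block, offsets from natural splines (5 df) of GC content and length, and leaving out each library. GC content and length came from a GRCm38 annotation matched by identifier (16662 of 16903 genes). Replicates of a group differed by more than sampling noise, and less so at Ctrl than with NRF1 OE. The chi-square per gene was 2.91 between the BV+ Ctrl libraries and 6.32 between the BV- Ctrl libraries. Between NRF1 OE libraries of a group it was 11.6 to 32.2. All groups shared the same estimate of the spread. No library was counted as a repeat, although these values do not exclude technical repeats. Scripts were tested on simulated data. The members and lists were chosen with earlier results of these data known. Genes named are the members, Nrf1, Prdm1, at most the 2 highest and 2 lowest called genes of a list in a comparison, and the 2 genes with the most similar profile (mean of at least 1 CPM) per member. Outside this rule, Zfp42-ps1, Pou5f1, Tbx3os1, Pecam1, Prrx1, Twist1, Tcf7l1 and list genes called only with offsets were named after their values were seen. A few results on single genes that this rule would name are not reported here. Promoter sequences are from RefSeq on GRCm38.p6. No coordinates of the deposited build were used. Plots were drawn with matplotlib 3.10.9.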

Additional observations from a re-analysis of the deposited data

How the results depend on the processing

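Of 840 values of the members under alternatives, 677 kept their direction and their side of the threshold, 71 were no longer called, 26 were newly called and 66 changed sign. The higher Tbx3 in BV+ than in BV- cells at NRF1 OE was called under each alternative. The cause of the changes below was not tested.

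The number of members called in NRF1 OE against Ctrl was 2 in BV+ and 5 in BV- cells, and between BV+ and BV- cells 0 at Ctrl and 3 at NRF1 OE. These counts became 5, 6, 0 and 3 without the filter on low counts, 5, 0, 1 and 1 in fits of only the libraries compared, and 5, 3, 0 and 7 with GC and length offsets. Leaving out each library gave 0 to 5, 0 to 6, 0 to 1 and 1 to 3. The main fit did not pair libraries by replicate number. Deviations from the group mean of libraries with the same number correlated between -0.428 and 0.348. In a group of 2 libraries these deviations mirror each other, so the correlations cannot exclude pairing. With a replicate block, in which BV- NRF1 OE 3 had a term of its own, the counts were 0, 0, 0 and 1, and with the replicate block and the offsets 2, 1, 0 and 5.

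Over all genes, 1355 were called with NRF1 OE in BV+ cells (1054 higher, 301 lower), against 775 higher and 513 lower with upper-quartile factors, 2106 with DESeq2, 3440 without the filter, 4371 in the fit of only those libraries, 3 with the block, 2092 with offsets (1149 higher, 943 lower) and 939 with the block and offsets. In BV- cells 2910 (1731 higher, 1179 lower) became 1814 higher and 1790 lower with upper-quartile factors, 4392 without the filter, 0 in the fit of only those libraries, 0 with the block, 1022 with offsets and 8 with block and offsets. Between BV+ and BV- at Ctrl 190 became 303 with DESeq2, 529 without the filter, 890 alone, 121 with the block and 285 with offsets. At NRF1 OE 2325 became 1260 alone, 1064 with the block, and with offsets 4634 (1792 higher, 2842 lower). The difference of effects had 0 genes called, 23 with DESeq2 and 108 without the filter. Leaving out each library moved these counts to 0 to 4957 in BV+, 0 to 5847 in BV-, 31 to 484 at Ctrl, 786 to 3182 at NRF1 OE and 0 to 33 for the difference.

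Several values changed sign, and not all of them were near 0. In BV- cells Klf2, called higher with NRF1 OE at 0.39 in the main fit, changed sign with the offsets. So did Nr5a2 (-0.39) and Tfcp2l1 (-0.29), which were not called. For NRF1 OE in BV+ cells, the log2 fold change of Nr0b1 was 0.0024 with DESeq2 size factors and 0.00248 with DESeq2, and that of Esrrb -0.00708 in the fit of only the libraries compared. Between BV+ and BV- at Ctrl, Esrrb and Klf5 were 0.00957 and 0.00948 with upper-quartile factors, 0.0175 and 0.0173 without the filter, 0.00934 and 0.00775 alone, and 0.00177 and 0.000103 with the replicate block. With the block Nr0b1 was also -0.0831 with NRF1 OE in BV- cells and 0.00164 between populations at NRF1 OE, and the differences of effect of Klf4 and Nr0b1 were 0.0267 and 0.0785. With offsets, Esrrb and Klf2 were -0.21 and -0.34 for NRF1 OE against Ctrl in BV+, and Tfcp2l1, Klf2, Nr5a2 and Nr0b1 were 0.0731, -0.0529, 0.011 and -0.32 in BV- cells. Tfcp2l1 was -0.0336 at Ctrl and the difference of Nr0b1 was 0.0054. With block and offsets these values were, in the same order, -0.21 and -0.34, 0.066, -0.0885, 0.0232 and -0.43, and -0.034 and 0.12, with 0.0651 for Nr0b1 between populations at NRF1 OE and 0.0329 for the difference of Klf4.

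When each library was left out, the following members changed sign. With NRF1 OE in BV+ cells, Nr0b1 ranged from -0.076 to 0.0723 and Klf2 from -0.0021 to 0.21. In BV- cells Nanog ranged from -0.0155 to 0.0302 and Nr0b1 from -0.0881 to 0.0794. At Ctrl, Esrrb ranged from -0.0494 to 0.0293, Klf5 from -0.12 to 0.11 and Zfp42 from -0.12 to 0.0132. Between populations at NRF1 OE, Tfcp2l1 ranged from -0.34 to 0.12, Zfp42 from -0.43 to 0.0183, Nr5a2 from -0.57 to 0.0203 and Nr0b1 from -0.17 to 0.0152. The difference of effects ranged from -0.38 to 0.0611 for Zfp42, from -0.15 to 0.0626 for Klf4, from -0.46 to 0.13 for Nr5a2 and from -0.11 to 0.0634 for Nr0b1. Where this left a group with 1 library, that library was assumed to vary like the other groups.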
